A study of Homo sapiens with 6 samples.

Results

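The 7 genes described here encode CDK12 and CDK13, their cyclin partner cyclin K (CCNK), the near-identical kinases CDK11A and CDK11B, and the 2 cyclins of CDK11, cyclin L1 (CCNL1) and cyclin L2 (CCNL2). They were taken by symbol from the deposited expression table, in which each of them has 1 row, so that 7 of 27420 listed genes were used. The data are RNA-seq values of A673 and SKNMC, established Ewing sarcoma cell lines, each given THZ1 at 50 or 200 nM, or DMSO as vehicle, over 6 h. THZ1 is a covalent inhibitor of CDK7, and the 2 doses were compared to see how limited and substantial inhibition of RNA polymerase II phosphorylation change transcription. The labels give 1 library for each of the 6 conditions, so a change within 1 line cannot be set against a replicate error and is given as a value. The tests given are of a dose over both lines, with the line as a block.

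CDK12 and CDK13 bind cyclin K and phosphorylate the C-terminal domain of the largest subunit of RNA polymerase II while the enzyme elongates. CDK12 is best known for keeping up the full-length transcripts of long DNA damage response genes, among them BRCA1 and ATR. CDK11 bound to cyclin L1 or L2 works with splicing factors, and the cyclins carry arginine- and serine-rich stretches like those of the splicing factors themselves. Transcripts of several such proteins are held in check by regulated splicing of their own messages. THZ1 was made against CDK7, but CDK12 and CDK13 carry a cysteine that the compound can also reach, so these genes code for its direct targets and for the neighbours of those targets.

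Values are FPKM, read pairs divided by transcript length and by library size, as the authors deposited them. FPKM corrects for length and can be compared between genes, but it is a share of the library and says nothing of the amount of RNA per cell, and fewer cells carrying a transcript cannot be told apart from less transcript in each cell. Changes are log2 ratios of (FPKM + 1), which understate the change of low values. A gene was called active in a line when it exceeded 1 FPKM in the DMSO library of that line, and a change was called at 2-fold; "rose" and "fell" are used of such changes alone, which within a line carry no test. All 7 genes were active in both lines, and none was listed at 0 in any library. The number of reads behind a value is unknown. All 7 Ewing sarcoma markers examined exceeded 1 FPKM, with a summed level of 652 to 1504 FPKM across the libraries, and CD99 was the highest of them in 4 of the 6 libraries. The 3 epithelial and 3 muscle markers stayed under 1 FPKM in all libraries. Of the 3 blood cell markers, PTPRC reached 7.90 to 13.1 FPKM in the SKNMC libraries, against 0.0125 to 0.0291 FPKM in A673, and CD3E was listed at 0 in all 6 libraries. The part of this PTPRC signal in any result below was not tested. Ribosomal protein genes took 13.6% to 17.7% of the summed FPKM in A673 and 19% to 29.7% in SKNMC, more at each higher dose, and the part of this in the results was not tested either.

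The 7 genes did not share a direction. At 200 nM THZ1 CDK12 fell in both lines and CDK13 in A673, against 25.3% of active genes in A673 and 27.3% in SKNMC. CCNL1 and CCNL2 had the highest log2 changes of the 7 genes at that dose. These were -0.16 and 0.22 in A673 and 1.01 and 0.68 in SKNMC. At 50 nM THZ1 in SKNMC cyclin L1 rose, against 0.471% of active genes, and in A673 it lay just under the 2-fold line. The transcripts of the CDK11 kinases changed by less than 1.5-fold in every comparison with DMSO.

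**Figure D1:**
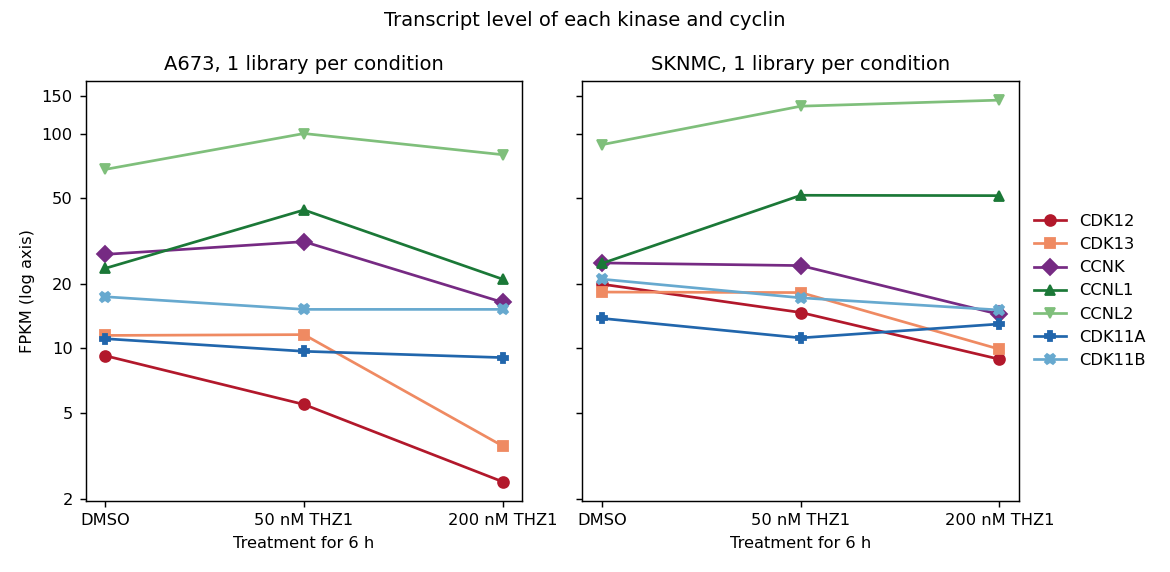
FPKM (log axis) of each of the 7 genes after 6 h with DMSO or either dose of THZ1 in A673 (left) and SKNMC (right), 1 point for each library and lines joining the conditions of a line. CCNL2 is the highest transcript in all 6 libraries, between 68.1 and 143 FPKM, and CDK12 ends lowest at 200 nM in both lines, at 2.40 FPKM in A673 and 8.91 FPKM in SKNMC.

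With DMSO, the levels in A673 were ordered CCNL2, CCNK, CCNL1, CDK11B, CDK13, CDK11A and CDK12. CCNL2, at 68.1 FPKM, exceeded 88.2% of the active genes of the line, and CDK12, at 9.25 FPKM, exceeded 37.7%. In SKNMC the order was CCNL2, CCNK, CCNL1, CDK11B, CDK12, CDK13 and CDK11A, from 88.8 FPKM down to 13.8 FPKM. Without replicates no spread can be given for neighbours in these orders, and CCNK and CCNL1 in SKNMC were at 25 and 24.9 FPKM. CDK12 was the only gene of the 7 that differed at least 2-fold between the untreated lines, with a level in SKNMC that was 2.03-fold that in A673 on the (FPKM + 1) scale. Of the 10574 genes active in both lines, 8.96% were higher in SKNMC by at least as much as this threshold, so 1 of 7 is close to the background. CDK13 was 1.55-fold higher in SKNMC, and CCNK was 1.09-fold lower.

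CDK12 (ENSG00000167258; chr17:37617763-37721160, plus strand, hg19) was lower at each higher dose in both lines and fell at 200 nM. In A673 the level was 9.25 FPKM with DMSO, 5.49 FPKM at 50 nM and 2.40 FPKM at 200 nM. The SKNMC levels were 19.9, 14.7 and 8.91 FPKM. The lowest SKNMC level was close to the A673 level with DMSO. The log2 change at 50 nM was -0.66 in A673 and -0.41 in SKNMC, short of 2-fold. The high dose gave -1.59 for A673 and -1.07 for SKNMC. In A673, 10.3% of active genes had a lower change at 200 nM than CDK12, and in SKNMC 24.3% had. The call in SKNMC is lost when libraries are scaled by their upper quartile, the 75th percentile over active genes, where the log2 change of CDK12 was -0.55.

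CDK13 (ENSG00000065883; chr7:39989635-40136733, plus strand, hg19), the paralog of CDK12 that shares its cyclin, had close values with DMSO and at the low dose. It was at 11.5 FPKM with DMSO and 11.6 FPKM at 50 nM in A673, and at 18.3 and 18.2 FPKM in SKNMC. At 200 nM it was at 3.52 FPKM in A673 and 9.92 FPKM in SKNMC. Nearly all of the difference lay between the 2 doses of THZ1. At 50 nM its log2 change was 0.01 in A673, or -0.20 scaled by ribosomal protein genes, and -0.01 in SKNMC, or 0.27 scaled by the upper quartile. The log2 change at 200 nM was -1.47 in A673, past 2-fold, and -0.82 in SKNMC, short of it. Between 50 nM and 200 nM in A673 the log2 change of CDK13 was -1.48, and 2.1% of active genes had a lower one. CCNL1 was the other gene of the 7 that fell at least 2-fold between the doses in A673, against 7.44% of active genes, and in SKNMC 0 of the 7 did, against 8.39%.

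Of the 7 genes, 2 (CDK12 and CDK13) fell at least 2-fold at 200 nM in A673, where 25.3% of active genes did, and 1 (CDK12) fell in SKNMC, where 27.3% did. At 50 nM 0 of the 7 fell in either line, against 15.9% of active genes in A673 and 15.8% in SKNMC. These counts are close to the background for a group of this size. Taking 50 and 200 nM in turn, the 7 genes had median log2 changes of 0.01 and -0.27 for A673 and of -0.04 and -0.45 for SKNMC. All active genes had medians of -0.27 and -0.40 for A673 and of -0.32 and -0.55 for SKNMC.

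The 2 lines were also combined in a fit by limma of log2 (FPKM + 1) on dose and line over the 10574 genes active in both, with p-values adjusted over all of them. The fit leaves 2 residual degrees of freedom, in which the error of a gene is how far the lines depart from a shared response to dose. Limma draws this error toward that of the other genes of similar level. The SE and p-values given thus rest on variance borrowed from all genes tested, and not on the gene's own departure alone. At 200 nM CDK12 had a mean log2 change of -1.33 (SE 0.18, limma adjusted p = 7.7e-05), CDK13 of -1.15 (SE 0.20, limma adjusted p = 0.00039) and CCNK of -0.73 (SE 0.15, limma adjusted p = 0.0014). These were 3 of the 7 genes, and 52.7% of all genes tested were lower at this threshold of 0.05. CCNL2 was the 1 gene of the 7 that was higher, by 0.45 (SE 0.14, limma adjusted p = 0.014), against 6.08% of all genes. For CCNL1, which differed between the lines, the mean was 0.43 (SE 0.23, limma adjusted p = 0.14). At 50 nM CCNL1 was higher by 0.95 (SE 0.23, limma adjusted p = 0.0065) and CCNL2 by 0.57 (SE 0.14, limma adjusted p = 0.0058), 2 of the 7 against 5.12% of all genes. CDK12 was lower, at -0.53 (SE 0.18, limma adjusted p = 0.035), 1 of the 7 against 38.5%. CDK11A and CDK11B did not pass the threshold at either dose, and without the line as a block none of the 7 genes did. Without the block 0% of all genes passed at 50 nM, and at 200 nM 13.2% were lower and 0.0284% higher. With scaling by ribosomal protein genes both CDK11 genes passed it at both doses, and CCNL2 passed it at neither dose and had a mean of -0.02 at 200 nM. That scaling put 57.6% of all genes lower at 50 nM and 77.4% at 200 nM, and 0.993% and 0.397% higher. With upper-quartile scaling CDK12 at 50 nM and CCNK at 200 nM did not pass it, and CCNL1 at 200 nM did. Of all genes, 25.1% were then lower at 50 nM and 31.9% at 200 nM, and 17.7% and 24.7% higher.

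The promoters of CDK12 and CDK13, lower at the high dose, and of CCNL1 and CCNL2, higher at the low dose, are printed because these pairs differed most in their values. Each is the 250 bases before the gene's start from the RefSeq promoter table (GRCh38.p14), which held an entry for 7 of the 7 genes, and 2 entries for CDK13, of which the first is shown. Capitals mark matches, on either strand, to the GC box GGGCGG, the CCAAT box CCAAT or the cyclic AMP response element TGACGTCA. The other letters searched were TATAAA for the TATA box, CCGGAAGT for an ETS site and CACGTG for the E-box. In CCNL1 the last bases of the cyclic AMP response element run directly into a GC box.
CDK12, chr17:39461236-39461485, plus strand: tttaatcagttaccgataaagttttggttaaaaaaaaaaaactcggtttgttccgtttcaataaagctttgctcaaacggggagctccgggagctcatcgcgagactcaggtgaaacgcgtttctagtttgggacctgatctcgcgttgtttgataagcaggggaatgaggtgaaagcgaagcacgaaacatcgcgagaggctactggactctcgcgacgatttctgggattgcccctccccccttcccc
CDK13, chr7:39950006-39950255, plus strand: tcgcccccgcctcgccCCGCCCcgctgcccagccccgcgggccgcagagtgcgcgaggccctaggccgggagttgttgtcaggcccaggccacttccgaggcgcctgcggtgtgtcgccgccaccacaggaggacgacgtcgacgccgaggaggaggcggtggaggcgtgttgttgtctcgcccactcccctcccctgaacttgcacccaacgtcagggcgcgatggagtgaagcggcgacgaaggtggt
CCNL1, chr3:157160148-157160397, minus strand: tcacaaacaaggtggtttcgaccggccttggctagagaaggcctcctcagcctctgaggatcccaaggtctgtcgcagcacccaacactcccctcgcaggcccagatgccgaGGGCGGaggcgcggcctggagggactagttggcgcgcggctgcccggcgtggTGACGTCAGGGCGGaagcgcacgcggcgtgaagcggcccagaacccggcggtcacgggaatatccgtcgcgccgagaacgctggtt
CCNL2, chr1:1399336-1399585, minus strand: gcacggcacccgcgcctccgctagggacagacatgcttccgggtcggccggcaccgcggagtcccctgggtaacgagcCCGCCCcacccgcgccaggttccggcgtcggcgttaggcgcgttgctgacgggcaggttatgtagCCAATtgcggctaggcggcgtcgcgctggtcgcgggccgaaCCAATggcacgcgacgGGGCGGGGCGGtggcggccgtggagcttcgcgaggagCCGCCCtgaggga

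None of the 6 motifs matched in the CDK12 window, whose GC content was 48.8%, nor in the CDK11A window. The windows of CDK13, CCNL1 and CCNL2 had GC contents of 72%, 67.6% and 73.6%. The GC box matched 1 time in CDK13, 2 times in CCNL1 and 4 times each in CCNL2 and CCNK. It is present in 42.6% of 35116 promoter entries. CCNL2 also held 2 CCAAT boxes, and CCNK and CDK11B held 1 each, while 32.0% of promoters have this box. The cyclic AMP response element matched in CCNL1 alone among the 7 genes, and 1.65% of all promoters hold it. The letters CCGGAAGT, a form of the ETS site that FLI1 binds, are in 3.42% of promoters. The TATA box is in 10.7% and the E-box in 6.34%, and none of these 3 matched in any of the 7 windows. Other forms of an ETS site were not searched. Nor were GGAA repeats, which the paper gives as the active motif of the fusion protein EWS-FLI1. These matches describe letters in a window, and no binding was measured here.

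Cyclin K (CCNK, ENSG00000090061; chr14:99947505-100001381, plus strand, hg19), which CDK12 and CDK13 need for activity, had its lowest level at 200 nM. In A673 it was at 27.4 FPKM with DMSO, 31.4 FPKM at 50 nM and 16.4 FPKM at 200 nM. The SKNMC levels were 25, 24.3 and 14.4 FPKM. Both 200 nM libraries lay below all other libraries of their line. The log2 change at 200 nM was -0.71 in A673 and -0.75 in SKNMC, short of 2-fold. The low dose gave 0.19 for A673, or -0.03 scaled by ribosomal protein genes, and -0.04 for SKNMC, or 0.24 scaled by the upper quartile. CCNK overlaps CCDC85C on the opposite strand, and whether the counting used the strand is not given in the sources used here. CCDC85C was at 6.65 FPKM in A673 with DMSO and had a log2 change of -0.75 at 200 nM in both lines, and the part of shared reads in these values was not tested.

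Cyclin L1 (CCNL1, ENSG00000163660; chr3:156864296-156878549, minus strand, hg19) gave the largest increases of the group and the largest difference between the lines. In A673 it was at 23.6 FPKM with DMSO, 44.1 FPKM at 50 nM and 21.0 FPKM at 200 nM. The SKNMC levels were 24.9 FPKM with DMSO, 51.6 FPKM at 50 nM and 51.4 FPKM at 200 nM. The lines had close levels with DMSO and with the low dose, and differed at the high dose, where A673 was back near its DMSO level. The log2 change at 50 nM was 0.88 in A673 and 1.02 in SKNMC, and 99.5% and 99.6% of active genes had a lower change. In SKNMC 1 of the 7 genes, CCNL1, rose at least 2-fold at 50 nM, where 0.471% of active genes did, and the same gene rose at 200 nM, where 0.462% did. In A673 0 of the 7 rose, against 0.343% of active genes at 50 nM and 0.126% at 200 nM. At 200 nM the log2 change was -0.16 in A673 and 1.01 in SKNMC. With upper-quartile scaling the A673 value was 1.13, past 2-fold, at 50 nM and turned to 0.20 at 200 nM, and the SKNMC increases at 50 and 200 nM were 0.66 and 0.46, under 2-fold, when scaled by ribosomal protein genes.

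Cyclin L2 (CCNL2, ENSG00000221978; chr1:1321090-1334708, minus strand, hg19) was the most abundant of the 7 transcripts and in A673, like cyclin L1, had its highest level at 50 nM. It was at 68.1 FPKM with DMSO, 100 FPKM at 50 nM and 79.7 FPKM at 200 nM. The SKNMC levels were 88.8 FPKM with DMSO, 134 FPKM at 50 nM and 143 FPKM at 200 nM. All 4 THZ1 libraries lay above the DMSO library of their line. The log2 change was 0.55 and 0.22 for A673, low dose first, and 0.59 and 0.68 for SKNMC, all short of 2-fold. The A673 value at 200 nM turned to -0.14 when scaled by ribosomal protein genes. Between 83.9% and 98.1% of active genes had a lower change than CCNL2 in these comparisons. Both cyclin L genes are known to make several transcripts, some without the full reading frame, and the values per gene do not separate them.

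**Figure D2:**
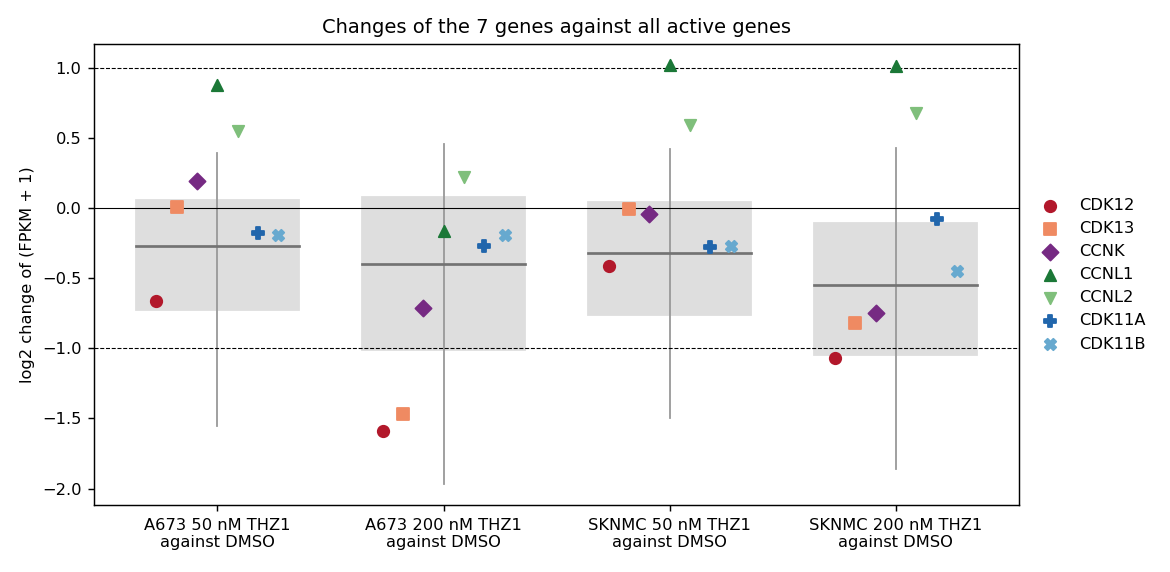
Log2 change of (FPKM + 1) of the 7 genes (symbols) in the 4 comparisons of THZ1 with DMSO. Grey boxes span the quartiles of all active genes of the line with their median as a line, thin lines reach from the 5th to the 95th percentile, and dashed lines mark 2-fold. CCNL1 and CCNL2 lie above the 95th percentile in 3 of the 4 comparisons, and CDK12 is the lowest symbol in all 4.

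CDK11A and CDK11B are copies on chromosome 1, and their values are uncertain. CDK11B (ENSG00000248333) lies at chr1:1570602-1590473 and CDK11A (ENSG00000008128) at chr1:1634168-1655766, both on the minus strand of hg19 and 43.7 kb apart, and CCNL2 lies 236 kb from CDK11B. Of all 100-base windows of the longest CDK11B transcript (GENCODE release 44 on GRCh37), 61.3% occur unchanged in a CDK11A transcript, and 55.5% of those of CDK11A occur in a CDK11B transcript. For CDK12, CDK13, CCNK, CCNL1 and CCNL2 no window occurred in a transcript of another gene. Of the CDK11A windows, 80.1% occur in a transcript of some other gene. The gene that shares most of them is ENSG00000268575, with 61.8%. A stretch of 61 coding bases of exon 3 is printed to show the likeness of CDK11A and CDK11B, and within it they differ at the base in capitals alone.
CDK11A, chr1:1653063-1653123, minus strand: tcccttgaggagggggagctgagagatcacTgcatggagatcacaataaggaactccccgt
CDK11B, chr1:1586851-1586911, minus strand: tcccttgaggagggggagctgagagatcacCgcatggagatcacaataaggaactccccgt

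CDK11B was at 17.4, 15.2 and 15.2 FPKM in A673, from DMSO to the high dose, and at 21.0, 17.2 and 15.1 FPKM in SKNMC. CDK11A was at 11.1, 9.70 and 9.07 FPKM in A673 and at 13.8, 11.2 and 13.0 FPKM in SKNMC. The sum of both, which depends less on how reads were split between CDK11A and CDK11B, was 28.5, 24.9 and 24.2 FPKM in A673 and 34.8, 28.4 and 28.1 FPKM in SKNMC. Any reads given to ENSG00000268575 are not in these sums. The sums were lower with THZ1 than with DMSO in both lines, and hardly differed between the doses. All 8 log2 changes of the single genes lay between -0.45 and -0.08. With upper-quartile scaling, 7 of the 8 were above 0, the exception being CDK11A in SKNMC at 50 nM, so no direction can be given for these 2 genes. CDK11B overlaps MMP23B on the opposite strand, which stayed at or under 0.190 FPKM in all libraries.

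Ratios between genes of 1 library cannot be moved by scaling whole libraries, and they put the pairs side by side. The ratio of CDK12 to CDK13 was 0.804, 0.473 and 0.681 for A673, from DMSO to the high dose, and 1.08, 0.809 and 0.898 for SKNMC. In both lines it was lowest at 50 nM, where CDK12 was lower than with DMSO and CDK13 close to its DMSO level, and in between at 200 nM. The level of CCNK against the sum of both kinases was 1.32, 1.84 and 2.76 in A673 and 0.653, 0.738 and 0.767 in SKNMC. The cyclin thus had more transcript for each unit of kinase transcript at each higher dose, by 2.09-fold in A673 and 1.17-fold in SKNMC from DMSO to 200 nM. The ratio of CCNL1 to CCNL2 was 0.346, 0.441 and 0.264 in A673 and 0.281, 0.385 and 0.360 in SKNMC. The sum of the L cyclins against the sum of the CDK11 kinases was 3.21, 5.79 and 4.15 in A673 and 3.27, 6.53 and 6.89 in SKNMC. The 2 lines were nearly equal with DMSO, both were higher at 50 nM, and they parted at 200 nM.

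**Figure D3:**
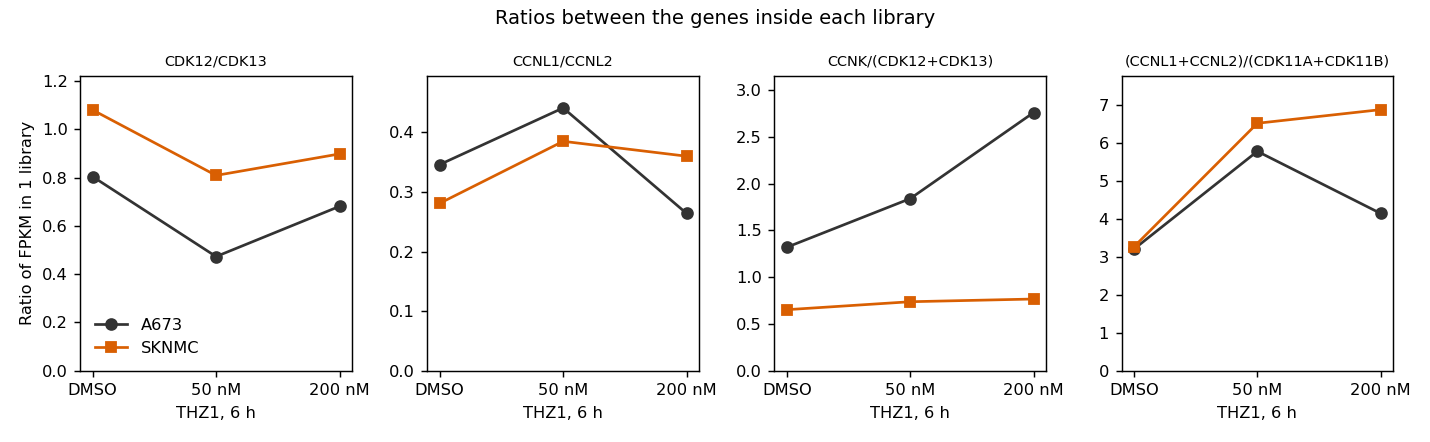
Ratios of FPKM between genes of the same library, by dose, for A673 (dark circles) and SKNMC (orange squares), each axis starting at 0. The L cyclins to CDK11 ratio starts at 3.21 and 3.27 with DMSO and ends at 4.15 in A673 and 6.89 in SKNMC, and the cyclin K ratio reaches 2.76 in A673 against 0.767 in SKNMC.

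Among the 7 genes, CCNL1 differed most between the lines at 200 nM. Its log2 change in A673 was 1.17 lower than in SKNMC, and 1.3% of the 10574 genes active in both lines had a difference at least as large in either direction. CDK13 differed by -0.64 and CDK12 by -0.52 (A673 minus SKNMC), and 14.2% and 23.2% of genes differed by as much. CCNK differed by 0.04. At 50 nM the differences between the lines lay between -0.25 for CDK12 and 0.23 for CCNK, and 39.3% or more of all genes differed by as much as each of the 7. A test of the lines' difference in response to dose would use up all 6 libraries, so none is given.

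**Figure D4:**
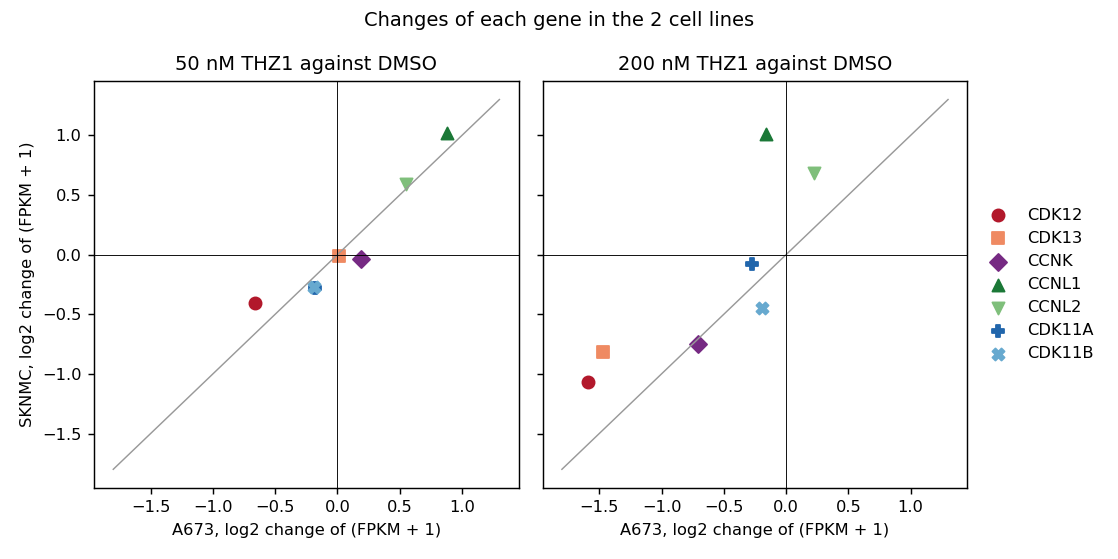
Log2 change of (FPKM + 1) in A673 (horizontal) against SKNMC (vertical) for each of the 7 genes at 50 nM THZ1 (left) and 200 nM THZ1 (right), with the diagonal of equal change. At 50 nM the symbols lie near the diagonal. At 200 nM CCNL1 stands off it, at -0.16 in A673 and 1.01 in SKNMC.

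The 7 genes differ in length. CDK12 and CDK13 span 103 kb and 147 kb of genome and CCNK 53.9 kb, against 14.3 kb for CCNL1, 13.6 kb for CCNL2, 21.6 kb for CDK11A and 19.9 kb for CDK11B. Those 3 long genes had the lowest log2 changes of the 7 at 200 nM in both lines. Over all active genes, the Spearman correlation of length with change at that dose was -0.0138 in A673 and 0.0434 in SKNMC. It was taken across genes, which are not independent replicates, and the part of length in the changes of the 7 genes was not tested. The low dose gave 0.182 and 0.175, with longer genes less lowered. Of the active genes over 100 kb, 17.2% fell at 200 nM in A673 and 16.9% in SKNMC, fewer than in any shorter class. CDK12 was lower than most genes of this class, with 4.4% of them below it in A673 and 13.9% in SKNMC, and for CDK13 the values were 6.3% and 24.2%. Of the active genes of 10 to 20 kb, 99.4% or more had a lower change than CCNL1 in each comparison other than A673 at 200 nM, where 60.1% had. The comparison by length was chosen after the values of the 7 genes were seen.

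**Figure D5:**
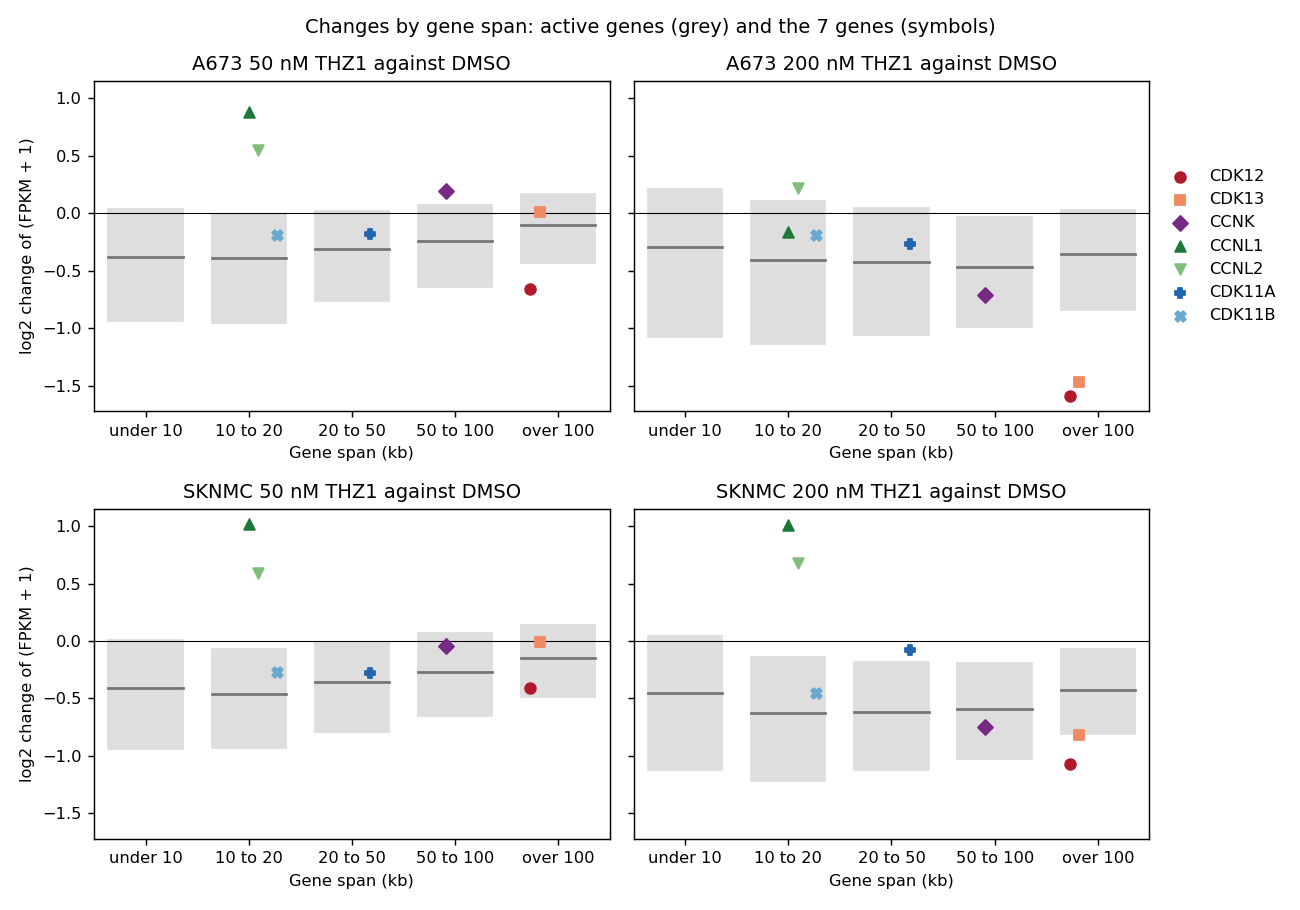
Log2 change of (FPKM + 1) in the 4 comparisons of THZ1 with DMSO, by the genomic span of the gene. Grey boxes give the quartiles and median of all active genes of each span class, and symbols the 7 genes in their own class. At 200 nM in A673 the class over 100 kb has a median of -0.35, whereas CDK12 is at -1.59 and CDK13 at -1.47.

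Other kinases and cyclins of transcription gave mixed values. Of 11 such genes, 0 fell at 50 nM in either line, against 15.9% of active genes in A673 and 15.8% in SKNMC. At the high dose 4 fell in each, against 25.3% and 27.3%. CDK7, the target of THZ1 and the kinase of TFIIH, was the lowest of them at 200 nM, going from 41.1 FPKM with DMSO to 9.57 FPKM in A673 (log2 change -1.99) and from 30.4 to 6.33 FPKM in SKNMC (-2.10). CCNT2, a cyclin of the elongation kinase CDK9, was the highest at 50 nM, with a log2 change of 0.72 in A673 and 1.12 in SKNMC. At 200 nM CCNT2 had -0.38 and -0.17. It was the 1 gene of the 11 that rose at 50 nM in SKNMC, against 0.471% of active genes, and in A673 0 rose, against 0.343%. The medians of the list were -0.17 and -0.60 for A673 and -0.25 and -0.86 for SKNMC, low dose first.

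Of 4 partners and substrates of CDK11, 1 fell at 200 nM in each line, close to the 25.3% and 27.3% of active genes, and 1 fell at 50 nM in SKNMC, against 15.8%. SAP30BP, an activator of CDK11, had a log2 change of -1.28 in A673 at 200 nM, and SRSF7, a splicing factor that CDK11 binds, had -1.03 and -1.16 in SKNMC, low dose first. SF3B1, the spliceosome subunit that CDK11 phosphorylates, was the highest of the 4 in every comparison, with 0.51 and -0.17 in A673 and 0.39 and -0.04 in SKNMC. The medians of the list were -0.14 and -0.42 in A673 and -0.07 and -0.76 in SKNMC.

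Among 8 kinases of arginine- and serine-rich splicing factors and their relatives, the values at 50 nM were mixed. CLK1 had a log2 change of 0.74 in A673 and 1.18 in SKNMC, and DYRK1A had 1.09 and 0.75. CLK2 fell in both lines, with -1.35 and -1.05. In each line 1 of the 8 rose at 50 nM, against 0.343% of active genes in A673 and 0.471% in SKNMC. At that dose 1 fell in each, against 15.9% and 15.8%. With 200 nM none of the 8 rose, against 0.126% of active genes in A673 and 0.462% in SKNMC. Of the same 8, 3 fell in A673 and 2 in SKNMC at 200 nM, against 25.3% and 27.3%. CLK1 at that dose was at -0.83 and 0.04. The medians of the list were -0.02 and -0.73 in A673 and 0.06 and -0.77 in SKNMC.

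The DNA damage response genes known to need CDK12 were set beside all active genes. At the low dose 13 of the 15 had a log2 change below 0 for A673 and 14 for SKNMC, as had 70.1% and 73% of active genes. Of the 15 genes, 6 fell at 50 nM in each line, against 15.9% and 15.8% of active genes. At the high dose 2 fell in A673, against 25.3%, and 5 in SKNMC, against 27.3%. BRCA1 was at 7, 1.63 and 3.82 FPKM in A673, from DMSO to the high dose, and at 9.66, 2.49 and 5.23 FPKM in SKNMC. It was lower at 50 nM than at 200 nM in both lines, unlike CDK12 itself. TERF2, a telomere-binding protein, had log2 changes of -1.71 and -2.13 in A673 and -1.48 and -2.45 in SKNMC. Of the same list FANCA, FANCD2, FANCI and ATM stayed within 1.5-fold of DMSO in all 4 comparisons on the (FPKM + 1) scale. In SKNMC ATM was at 5.21 FPKM with DMSO and 8.16 FPKM at 200 nM, a log2 change of 0.56. The medians of the list were -0.65 and -0.61 in A673 and -0.80 and -0.65 in SKNMC.

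The last list holds cyclins and kinases of the cell cycle. Of 12 active genes in A673, 4 fell at 50 nM and 6 at 200 nM, against 15.9% and 25.3% of active genes. Of 13 in SKNMC, 3 and 6 fell, against 15.8% and 27.3%. None rose in either line at either dose. Of all active genes, 0.343% and 0.126% rose in A673 and 0.471% and 0.462% in SKNMC, low dose first. The absence of rises is thus close to the background for a list of this size. CCNF, which codes for an F-box protein with a cyclin fold, was the lowest in all 4 comparisons, at 18.8, 2.52 and 1.29 FPKM in A673 and 19.7, 2.87 and 2 FPKM in SKNMC. CDK4 was at 163, 140 and 182 FPKM in A673 and at 178, 120 and 124 FPKM in SKNMC. The medians of the list were -0.60 and -0.96 in A673 and -0.56 and -0.98 in SKNMC.

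Genes with the most similar set of 4 log2 changes were looked for among 5947 other protein-coding genes that passed 10 FPKM with DMSO in each line and were never listed at 0. Likeness was measured as the root mean square difference over the 4 comparisons, which share the DMSO library within a line. For CDK12 they were PLEKHA2, TBC1D14 and UBE2R2, with differences of 0.0133, 0.0295 and 0.0459 on the log2 scale. SMAD5, SGOL2 and XPO6 came closest to CDK13, at 0.103 to 0.109, and SCAF11, HIPK1 and GATAD2A to CCNK, at 0.0462 to 0.0603. SDC2, PSMD2 and ANKRD10 were closest to CCNL2, at 0.0721 to 0.0906. The pattern of CCNL1 had no neighbour as close, and ARL6IP1, PNISR and PAXBP1 came nearest at 0.218, 0.231 and 0.264. ARL6IP1 had log2 changes of 0.67 and -0.1 in A673 and 0.83 and 0.68 in SKNMC, low dose first. PNISR had 0.97 and 0.03 in A673 and 0.84 and 0.64 in SKNMC. For PAXBP1 they were 1.01 and 0.31 in A673 and 1.19 and 0.88 in SKNMC.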

How the data were processed

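RNA from 6 libraries was prepared by the authors with TruSeq kits and sequenced as 100-bp paired-end reads on a HiSeq2000, then aligned to hg19 with STAR using Ensembl 75. The authors deposited FPKM values per gene, estimated with StringTie as the methods state, while the submitters' processing notes name STAR and Cufflinks; tool versions and the strand setting are not given in the sources used here. The table lists 20311 protein-coding and 7109 lincRNA genes, and its title speaks of average expression although the labels give 1 library per condition. Its 4 columns of the authors' log2 fold changes were not used. The column names equal the sample titles, and groups follow those titles. Columns sum to 451872 to 462997 FPKM, and the read depth is unknown, so counting error could not be given.

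All steps ran in Python 3.11.15 with pandas 2.3.3, numpy 2.4.6, scipy 1.17.1 and matplotlib 3.10.9, with limma 3.58.1 in R 4.3.3, and the calculation of changes was tested on simulated data. A pseudocount of 1, an activity limit of 1 FPKM and a 2-fold threshold were used. A test of dose over both lines was added after the data were seen: limma with a mean-variance trend on log2 (FPKM + 1), dose and cell line as terms, Benjamini-Hochberg adjustment over 10574 genes and a threshold of 0.05. The pairing comes from the labels, which give each line all 3 conditions. The 7 genes and the comparison lists were chosen with earlier results of these data known. The genes named are the 7, the lowest or highest gene of each list in any comparison, the markers, and the 3 nearest genes by pattern for all but the 2 CDK11 genes, which share reads. FANCD2 and FANCI, outside this rule, and the overlapping genes were named after their values were seen. Alternatives were a pseudocount of 0.1, 3 scalings (the 75th percentile of active genes, the median of 80 ribosomal protein genes, a common sum), a 1.5-fold threshold and no activity limit. Shared 100-base windows were counted over all GENCODE release 44 transcripts on GRCh37. File coordinates are hg19, and promoters are GRCh38.p14.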

Additional observations from a re-analysis of the deposited data

Results flagged for a closer look

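CCNL1 at 200 nM THZ1 was below its DMSO level in A673 and above it in SKNMC, with log2 changes of -0.16 and 1.01 and a difference (A673 minus SKNMC) of -1.2. The difference was not tested, since such a fit would use up all 6 libraries. CCNK at 50 nM was above 0 in A673 and below 0 in SKNMC, a difference of 0.23, and CDK13 at 50 nM likewise, a difference of 0.025; neither was tested. The changes of CCNK and CDK13 in SKNMC at 50 nM turned above 0 with scaling by the upper quartile of active genes, at 0.24 and 0.27, and those in A673 turned below 0 when scaled by ribosomal protein genes, at -0.03 and -0.20. CCNL1 in A673 at 200 nM turned to 0.20 with upper-quartile scaling.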

How the results depend on the processing

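The main limit is that each condition has 1 library of unknown depth. Scaling by the upper quartile (75th percentile) or by ribosomal protein genes shifted the median log2 change over active genes by 0.22 and -0.19 (A673, 50 nM), 0.32 and -0.30 (A673, 200 nM), 0.25 and -0.31 (SKNMC, 50 nM) and 0.48 and -0.45 (SKNMC, 200 nM). The number of the 7 genes that fell at 200 nM in SKNMC, 1 as reported, was 0 with the upper quartile, 3 with the ribosomal protein genes and 3 with a 1.5-fold threshold; CDK12 is in both groups of 3, with CDK13 and CCNK. At 50 nM in A673 the count went from 0 to 1 with a 1.5-fold threshold, where 31.8% of active genes fell. The other counts of genes that fell stayed within 1.5 times. The count that rose went from 0 to 1 at 50 nM in A673 and from 1 to 2 at 200 nM in SKNMC with the upper quartile, and from 1 to 0 at both doses in SKNMC with the ribosomal protein genes. With a 1.5-fold threshold it went from 0 to 1 at 50 nM in A673 and from 1 to 2 at each dose in SKNMC. The shares of all active genes that rose under these settings were not computed, so these counts of rises cannot be set against a background. The share of all active genes that fell at 200 nM in SKNMC was 13.4% with the upper quartile, 49.7% with the ribosomal protein genes and 48.0% with a 1.5-fold threshold. Of 112 recomputed log2 changes (28 values under 4 settings), 104 stayed on their side of 2-fold, 3 left it, 5 passed it (among them, with the ribosomal protein genes, CCNK at 200 nM with -1.06 in A673 and -1.27 in SKNMC and CDK13 in SKNMC with -1.33, and, with the upper quartile, CCNL2 in SKNMC at 200 nM with 1.24), and 14 changed sign, none of them of a change past 2-fold; 10 of the 14 were with the upper quartile. The nearest genes by pattern changed with a pseudocount of 0.1: 1 of 3 was shared for CDK12 and 1 of 3 for CDK13. The test over both lines, chosen after the data were seen, has the cell line as a block. Without that block 0 of the 7 genes passed it at 50 nM or at 200 nM in either direction by limma, with 0 and 1 at an unadjusted p under 0.05. Of all genes tested without the block, 0% passed at 50 nM, and at 200 nM 13.2% were lower and 0.0284% higher. With the upper quartile the number lower at 50 nM was 0 in place of 1 and the number higher at 200 nM was 2 in place of 1. Of all genes tested, 25.1% were lower at 50 nM and 24.7% higher at 200 nM with this scaling. With the ribosomal protein genes 3 were lower and 1 higher at 50 nM (1 and 2 as reported), and 5 lower and 0 higher at 200 nM (3 and 1 as reported). The shares of all genes tested were 57.6% lower and 0.993% higher at 50 nM, and 77.4% lower and 0.397% higher at 200 nM.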
